A study of Homo sapiens with 4 samples.

Results

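The members are the peaks of TAF3, H3K4me3 and RNAPII over 10 genes of the Wnt pathway that are known from colon cancer: CTNNB1, TCF7L2, LEF1, MYC, CCND1, SOX9, ASCL2, AXIN2, RNF43 and LGR5. A peak was counted as a member when it overlapped, by at least 1 bp, the hg19 span of a gene (given to the kb) widened by 2 kb at each end. Of 97318 peaks in the authors' 3 full lists, 115 were members: 16 of 17887 TAF3 peaks, 15 of 17975 H3K4me3 peaks and 84 of 61456 RNAPII peaks. LEF1 held 0 peaks in each list, so 9 of the 10 genes are represented.

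The libraries came from HCT116, an established human colorectal carcinoma cell line, with 1 library for each antibody and 1 of input DNA. TAF3 is a subunit of TFIID, the general factor that nucleates the preinitiation complex, and the antiserum recognises residues 290 to 389. H3K4me3 is the trimethyl mark on lysine 4 of histone H3 found at active promoters, and RNAPII is RNA polymerase II. The monolayers were fixed in 1% formaldehyde for 10 min, and the labels name no other treatment, genotype or time. The identity of the cells was taken from the labels and was not checked against markers, because no hg19 annotation was at hand. After duplicate removal 12560129 to 17411155 tags remained per antibody and 19185386 for input. Without replicates no difference between genes or antibodies was tested. Intervals, unless called Wilson, are exact Poisson 95% intervals on tags, which cover counting error only.

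In the canonical Wnt pathway, ligand binding spares beta-catenin (encoded by CTNNB1) from destruction, and beta-catenin then joins TCF/LEF factors on DNA to activate target genes. The targets include growth regulators such as MYC and CCND1, genes of the intestinal stem cell such as LGR5 and ASCL2, and feedback inhibitors such as AXIN2 and RNF43. Most colorectal cancers carry a mutation that keeps the pathway active, in APC or in CTNNB1, and HCT116 is known to carry an activating mutation of CTNNB1.

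The RefSeq promoter table held 4 of the 10 genes, on build GRCh38.p14. The 250 bases before the start of CTNNB1 (chr3:41199255-41199504, plus strand), TCF7L2 (chr10:112949997-112950246, plus strand), RNF43 (chr17:58417535-58417784, minus strand) and LEF1 (chr4:108166302-108166551, minus strand) are shown because these genes run from the strongest TAF3 peak among the 10 genes to no peak at all. They are written 5′ to 3′ with GC boxes (GGGCGG or its reverse complement CCGCCC) in capitals. For TCF7L2 and RNF43 the first start of the gene is shown, and the LEF1 start of the table lies inside the gene.
CTNNB1: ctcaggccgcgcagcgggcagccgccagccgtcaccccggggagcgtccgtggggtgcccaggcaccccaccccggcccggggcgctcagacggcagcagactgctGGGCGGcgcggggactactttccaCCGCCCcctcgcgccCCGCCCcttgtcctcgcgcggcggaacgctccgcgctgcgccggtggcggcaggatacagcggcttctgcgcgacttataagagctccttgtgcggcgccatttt
TCF7L2: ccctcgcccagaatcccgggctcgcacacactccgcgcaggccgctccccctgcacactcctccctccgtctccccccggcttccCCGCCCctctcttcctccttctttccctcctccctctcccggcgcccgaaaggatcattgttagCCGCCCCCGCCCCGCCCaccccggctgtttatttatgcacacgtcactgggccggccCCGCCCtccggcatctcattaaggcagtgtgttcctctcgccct
RNF43: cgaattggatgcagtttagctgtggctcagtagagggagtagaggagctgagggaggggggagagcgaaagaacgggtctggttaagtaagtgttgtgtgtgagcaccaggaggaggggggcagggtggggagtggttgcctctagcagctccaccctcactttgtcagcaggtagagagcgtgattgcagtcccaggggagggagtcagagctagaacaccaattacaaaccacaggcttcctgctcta
LEF1: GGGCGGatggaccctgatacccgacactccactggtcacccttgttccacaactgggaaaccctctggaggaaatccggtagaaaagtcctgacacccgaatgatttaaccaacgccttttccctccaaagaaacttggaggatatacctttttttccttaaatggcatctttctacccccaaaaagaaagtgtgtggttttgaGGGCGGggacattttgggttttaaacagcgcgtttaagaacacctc

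The promoters differed in base composition. The window of 250 bases before to 50 after the start held 39 CG dinucleotides at CTNNB1, 25 at TCF7L2, 9 at LEF1 and 5 at RNF43, against a median of 14 over 35116 windows of the table. The LEF1 window is that of a start inside the gene, so the promoter at its 5′ end was not examined. Further starts of TCF7L2 held 7 and 5 CG dinucleotides and a further start of RNF43 held 0, all without a GC box. G+C made up 74.0% of the CTNNB1 window, 65.7% of TCF7L2, 54.3% of RNF43 and 47.0% of LEF1, against a median of 58.7%. GC boxes numbered 3 at CTNNB1, 5 at TCF7L2 (1 pair of which shares a base), 0 at RNF43 and 2 at LEF1, and 45.0% of all windows held at least 1. The TATA box letters TATAAA (in 11.5% of all windows), the TCF/LEF letters CTTTGAT (in 2.62%) and the E box letters CACGTG (in 7.26%) were found on neither strand of the 4 windows. So the CG-rich CTNNB1 window and the CG-poor RNF43 window both belonged to genes with all 3 antibodies at the start, as described next.

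At the gene start, 8 of the 10 genes carried all 3 antibodies, LGR5 carried H3K4me3 alone and LEF1 carried none. A peak was taken as over the start when it came within 2 kb of the 5′ end of the span. H3K4me3 was over the start of 9 genes, and TAF3 overlapped the H3K4me3 peak at 8 of these 9 (82.8% of all H3K4me3 peaks overlapped a TAF3 peak). RNAPII also overlapped 8 of the 9, against 93.4% of all H3K4me3 peaks. All 8 TAF3 start peaks overlapped H3K4me3 (86.6% of all TAF3 peaks did) and all 8 overlapped both partners (86.0%). Of the H3K4me3 start peaks 8 of 9 overlapped both partners (82.6% of all H3K4me3 peaks), and of the RNAPII start peaks 8 of 8 did (24.3% of all RNAPII peaks, most of which lie away from H3K4me3). The TAF3 and H3K4me3 shares are near those of their whole lists. The authors' filter, which keeps peaks above 5-fold enrichment with a false discovery rate below 5%, kept all 9 H3K4me3 start peaks (79.5% of all H3K4me3 peaks were kept), all 8 RNAPII start peaks (40.7%) and 7 of the 8 TAF3 start peaks (65.8%). The TAF3 peak of ASCL2 was the one left out. The RNAPII share of 40.7% is over a list in which 29.4% of peaks overlapped H3K4me3, so it is not a share of peaks at gene starts. Where several peaks lay over a start, the one of highest fold enrichment was counted, which can raise the share kept. Of the weaker peaks over a start, those of MYC (H3K4me3, 8.79-fold) and RNF43 (TAF3, 10.6-fold) were not kept. Those of CCND1 (TAF3, 46.5-fold) and SOX9 (RNAPII, 17.0-fold) were kept.

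**Figure D1:**
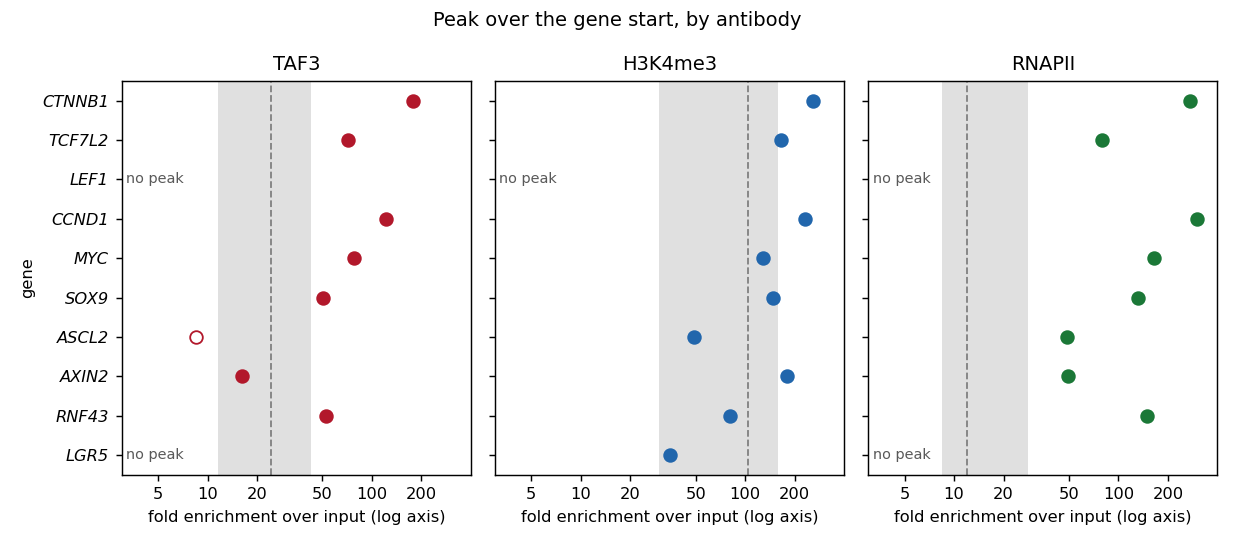
Fold enrichment over input (log axis) of the peak over the start of each of the 10 genes, in 1 panel per antibody. Filled points are in the authors' filtered list and the open point is not. The dashed line is the median of the full list and the grey band runs from its lower to its upper quartile. CTNNB1 and CCND1 lie furthest right in every panel, ASCL2 and AXIN2 are lowest among the TAF3 peaks, and LEF1 has no peak.

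CTNNB1 and CCND1 had the strongest start peaks of the 10 genes for each antibody. CTNNB1, which encodes beta-catenin, the effector of the pathway, carried a TAF3 peak of 177-fold enrichment (chr3:41240206-41241982, 452 tags, interval 411 to 496) that ranked 6 of 17887. Its RNAPII peak (chr3:41240159-41241936) reached 274-fold with 638 tags (589 to 689) and ranked 27 of 61456. Its H3K4me3 peak (chr3:41239894-41242657) reached 257-fold with 982 tags (922 to 1045) and ranked 229 of 17975. These peaks were 1777 bp wide for TAF3, 1778 bp for RNAPII and 2764 bp for H3K4me3, wider than 76.9%, 81.3% and 78.9% of their lists. The CTNNB1 summits of TAF3 and RNAPII were 6 bp apart.

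CCND1 encodes cyclin D1, which drives entry into S phase. Its RNAPII peak (chr11:69450987-69473760) had the 3rd highest fold enrichment of 61456, 302-fold, with 4982 tags (4845 to 5122) over 22774 bp. Only 0.0374% of RNAPII peaks were 20000 bp or wider. H3K4me3 formed 1 peak of 232-fold over 8310 bp (chr11:69450850-69459159, 2499 tags), wider than 99.98% of its list. TAF3 gave 2 peaks there. The stronger lay on the start (chr11:69455200-69458669, 121-fold, 482 tags, interval 440 to 527) and the weaker upstream of it (chr11:69450722-69455098, 46.5-fold, 393 tags, 355 to 434), with its summit at -1.98 kb from the start. The CCND1 peaks stood out by fold enrichment and width more than by density. The start TAF3 peak held 139 tags per kb, higher than 76.9% of its list, against 99.3% by fold enrichment. For H3K4me3 these values were 61.5% and 95.7%.

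MYC encodes a transcription factor of growth and proliferation, and its start was covered by some of the largest tag sums of the series. TAF3 held 1253 tags (1185 to 1324) at chr8:128746136-128751906, more than 99.93% of TAF3 peaks. RNAPII held 5993 tags (5842 to 6147) at chr8:128746014-128756412, which covers the whole gene, and its 576 tags per kb exceeded 99.96% of RNAPII peaks. H3K4me3 held 3082 tags (2974 to 3193) at chr8:128746448-128752604, more than 99.97% of its list. By fold enrichment the same peaks were less extreme, at 77.7 for TAF3, 165 for RNAPII and 129 for H3K4me3, the last higher than 61.5% of H3K4me3 peaks. A second H3K4me3 peak upstream held 14 tags at 8.79-fold and was not in the filtered list.

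SOX9 encodes a transcription factor of the crypt base. Its start peaks had fold enrichments of 50.3 for TAF3 (459 tags), 148 for H3K4me3 (1789 tags) and 132 for RNAPII (743 tags). They stood above 81.5%, 70.8% and 94.0% of their lists. RNAPII continued in 2 further peaks of 17.0- and 34.2-fold, so that 97.6% of the span lay in RNAPII peaks, while TAF3 peaks covered 25.9% and H3K4me3 peaks 38.2% of it.

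TCF7L2, the main TCF factor of intestinal epithelium, carried broad peaks at its start. TAF3 reached 72.0-fold over 4705 bp (chr10:114709463-114714167, 960 tags, interval 900 to 1023), and H3K4me3 reached 166-fold over 8206 bp (chr10:114708973-114717178, 2710 tags). Among H3K4me3 peaks 99.97% were narrower, and among TAF3 peaks 99.7%. RNAPII reached 79.6-fold over 6521 bp, with its summit 545 bp upstream of the TAF3 summit. This was the widest gap between the TAF3 and RNAPII summits among the 8 genes that had both.

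RNF43 encodes a ubiquitin ligase that removes Frizzled receptors from the cell surface. At its start TAF3 reached 52.3-fold (196 tags, 170 to 225), H3K4me3 81.0-fold (544 tags) and RNAPII 150-fold (574 tags). The RNAPII peak stood above 95.9% of its list and the H3K4me3 peak above 41.4%. The H3K4me3 peak began 0.212 kb upstream of the TAF3 summit and reached 3.22 kb downstream, so it lay almost wholly on the gene side. It covered 76.1% of the bases of the TAF3 peak. A weaker TAF3 peak beside it (10.6-fold, 67 tags, false discovery rate 12.6%) was not in the filtered list.

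AXIN2, a feedback inhibitor that scaffolds the destruction complex of beta-catenin and a widely used reporter of pathway activity, combined a strong H3K4me3 peak with a weak TAF3 peak. H3K4me3 reached 181-fold with 1239 tags (1171 to 1310) at chr17:63554862-63558548. TAF3 reached 16.3-fold with 112 tags (92.2 to 135) at chr17:63555693-63557433, higher than 36.1% of TAF3 peaks. RNAPII reached 49.3-fold with 206 tags (179 to 236). The TAF3 and RNAPII peaks did not reach the 5′ end of the span and had their summits 1.63 and 1.59 kb inside the gene.

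ASCL2 and LGR5, genes of the intestinal stem cell, had the weakest H3K4me3 start peaks of the 9 genes with one. ASCL2 encodes a transcription factor, and its H3K4me3 peak (chr11:2289800-2291011) had 48.9-fold enrichment and 118 tags (97.7 to 141). The ASCL2 RNAPII peak had 48.8-fold enrichment and 111 tags (91.3 to 134). Its TAF3 peak (chr11:2290093-2290782) held 25 tags (16.2 to 36.9) at 8.50-fold with a false discovery rate of 23.4%. All 3 ASCL2 summits lay 1501 to 1636 bp inside the gene, and none of these peaks reached the 5′ end of the span. Because the ASCL2 span is only 3 kb long, these peaks also came within 2 kb of its 3′ end. Counting them at the start thus does not separate the start from the end of this gene. LGR5, a receptor for R-spondins, had an H3K4me3 peak of 35.02-fold and 382 tags (345 to 422) at chr12:71832961-71835362 with neither TAF3 nor RNAPII over it. The nearest TAF3 peak to LGR5 lay 77.8 kb past its 3′ end.

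LEF1, a TCF/LEF factor that is itself a Wnt target, held no peak of any antibody over 122 kb. The nearest peaks lay past its 3′ end, at 55.4 kb for H3K4me3 (95.4-fold), 56.2 kb for TAF3 (30.8-fold) and 56.2 kb for RNAPII (72.0-fold), on the side where HADH is the neighbouring gene in RefSeq. On the 5′ side the nearest TAF3 peak was 451 kb away. A place without a peak is one where no region passed the p cutoff of 1e-05 used by the authors, so lower occupancy there was not measured.

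The level of TAF3 was next set against peaks of like H3K4me3 fold enrichment. All H3K4me3 peaks were divided into 10 equal groups by fold enrichment, and the TAF3 fold enrichment at each start was placed within its own group, where peaks without TAF3 counted as lower. CTNNB1 stood above 99.8% of the 1795 peaks of its group, CCND1 above 95.8%, MYC above 94.2%, RNF43 above 93.6%, TCF7L2 above 88.9% and SOX9 above 67.8%. ASCL2 stood above 18.3% of its group, of which 11.7% had no TAF3. AXIN2 stood above 1.62% of its 1794 peaks, whose median TAF3 fold enrichment was 45.9 against 16.3 at AXIN2. Its RNAPII was also low for the mark, above 1.23% of that group. The match was by fold enrichment alone and was loose. The highest H3K4me3 group, with CTNNB1 (257-fold) and CCND1 (232-fold), ran from 203.08- to 335.72-fold. By tags per bp the H3K4me3 peak of MYC stood above 97.2% of its list, against 61.5% by fold enrichment. The highest overlapping TAF3 peak was taken, and the H3K4me3 peaks of MYC, CCND1 and TCF7L2 were wider than 99.7% of their list. Placed instead among RNAPII peaks divided likewise, the TAF3 peak of CTNNB1 stood above 99.9%, TCF7L2 above 99.2%, CCND1 above 97.9% and MYC above 84.5%. RNF43 stood above 54.7%, SOX9 above 50.7%, AXIN2 above 25.5% and ASCL2 above 5.92% of their groups. These RNAPII groups were wide. The highest ran from 104.58- to 312.63-fold (median TAF3 49.9) and the next from 46.86- to 104.57-fold (median TAF3 24.0). CTNNB1 (274-fold) and CCND1 (302-fold) lay near the top of the highest group. AXIN2 (49.3-fold) and ASCL2 (48.8-fold) lay near the bottom of the next, so these places were not freed of RNAPII strength. The high place of RNF43 in its H3K4me3 group was not found in its RNAPII group. In the H3K4me3 group of LGR5, 63.0% of 1794 peaks overlapped TAF3 (Wilson 95% interval 60.8 to 65.2%) and 87.9% overlapped RNAPII (86.3 to 89.3%). These are shares of a complete group from 1 library, so the intervals reflect group size and measure no spread between libraries. LGR5 was thus among 37.0% of its group without TAF3 and 12.1% without RNAPII.

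**Figure D2:**
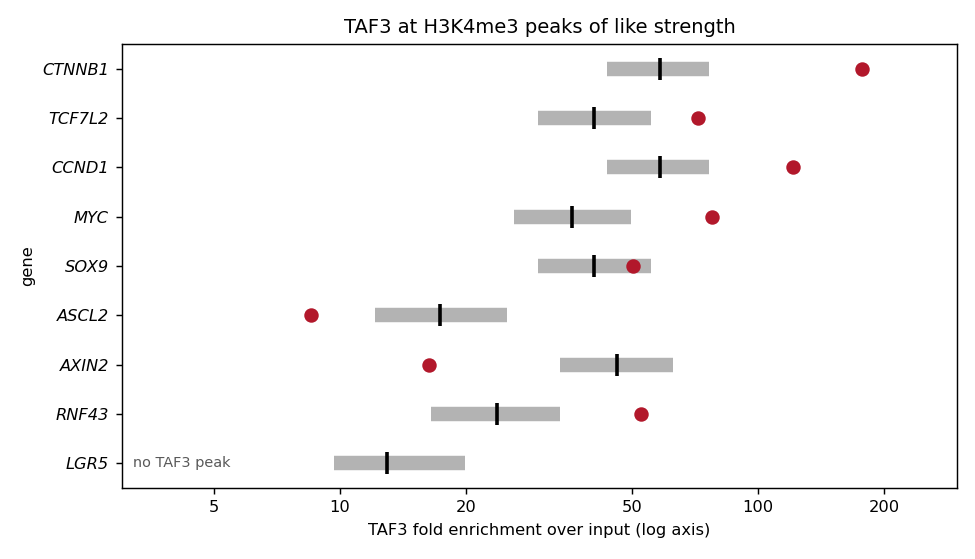
TAF3 fold enrichment over input (log axis) at the start of each gene (points) beside H3K4me3 peaks of the same group by H3K4me3 fold enrichment. Grey bars run from the lower to the upper quartile of TAF3 fold enrichment among peaks of that group that overlap TAF3, with the median as a black tick. The points of CTNNB1, CCND1, MYC, RNF43 and TCF7L2 lie right of the bar, SOX9 lies within it, and AXIN2 (16.3 against a median of 45.9) and ASCL2 lie left of it.

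The summits of TAF3 and RNAPII lay within 50 bp of each other at most of these genes, and the H3K4me3 summit lay further into the gene than the TAF3 summit. Among the 8 genes with all 3 antibodies, TAF3 and RNAPII summits were 2 bp apart at CCND1, 6 at CTNNB1, 20 at MYC, 29 at SOX9, 41 at RNF43 and 42 at AXIN2. They were 135 bp apart at ASCL2 and 545 bp at TCF7L2. Within 50 bp were thus 6 of 8, against 50.0% of the 15390 TAF3 peaks of the full list that overlapped both partners. The H3K4me3 summit was downstream of the TAF3 summit, in the direction of transcription, at 8 of 8 genes. At ASCL2 it nevertheless lay upstream of the RNAPII summit, at 1513 against 1636 bp from the start. The distance from the TAF3 summit was 12 bp at ASCL2, 116 at AXIN2, 152 at CTNNB1, 278 at RNF43, 304 at SOX9, 550 at TCF7L2, 672 at CCND1 and 722 at MYC. The median was 291 bp, against 221 bp over the same 15390 TAF3 peaks regardless of side. The side could not be set against the rest of the list, since the strand of other peaks is not known here.

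**Figure D3:**
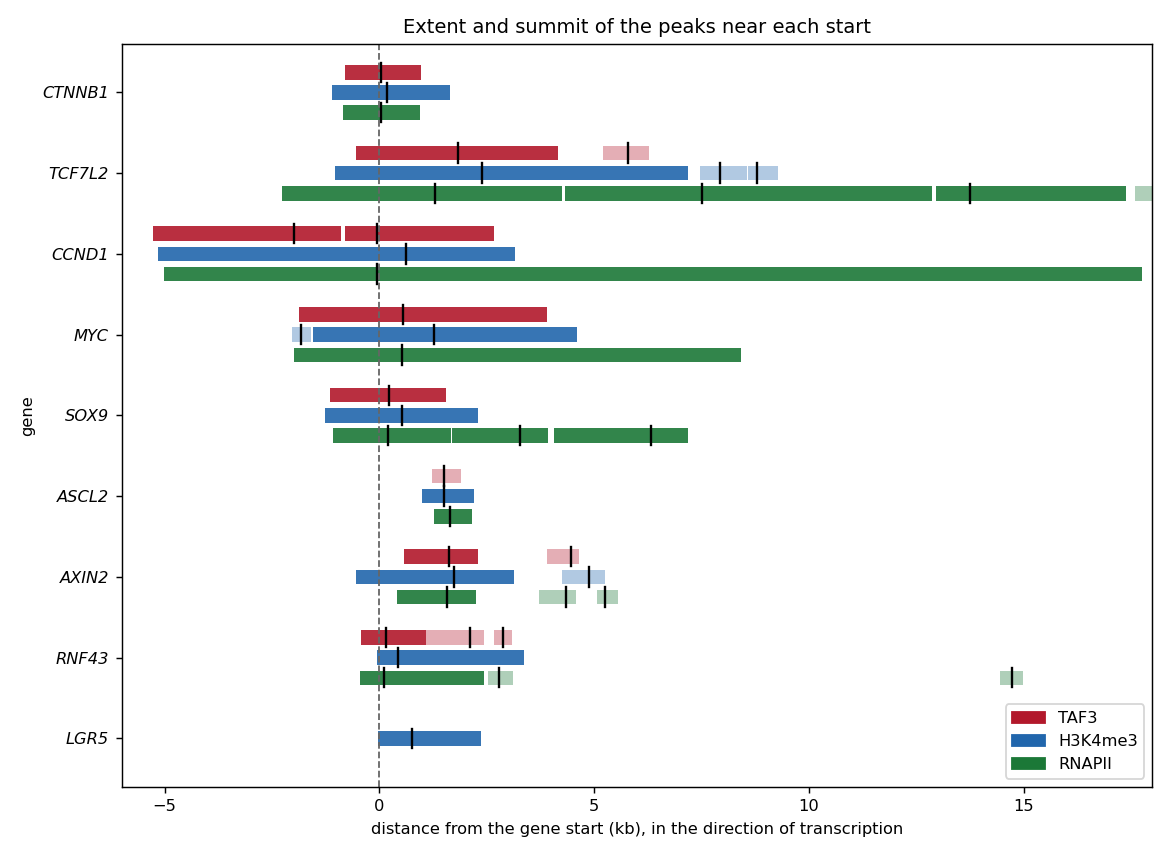
Extent of the peaks near the start of the 9 genes with a peak, with the distance from the start in kb along the direction of transcription. Bars are peaks (red TAF3, blue H3K4me3, green RNAPII), pale bars are not in the filtered list, and black ticks are summits. TAF3 and RNAPII ticks are nearly aligned except at TCF7L2 (545 bp apart) and ASCL2 (135 bp), the blue tick lies to their right at CCND1 and MYC, and the green bar of CCND1 is the longest.

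Away from the start, TAF3 and H3K4me3 peaks were few and mostly weak, with the 3′ end of RNF43 as the exception, while RNAPII peaks were many. TAF3 had 6 such peaks, in AXIN2, RNF43 and TCF7L2, with a median of 7.97-fold, and 1 of the 6 was in the filtered list (65.8% of all TAF3 peaks were). All 6 overlapped RNAPII (97.4% of all TAF3 peaks did). H3K4me3 had 5, of which 1 was in the filtered list (79.5% of all H3K4me3 peaks were). RNAPII had 75 in 6 genes, 51 of them in TCF7L2, with a median of 10.9-fold, and 49 were in the filtered list (40.7% of all RNAPII peaks were). Most of the 49 came from TCF7L2, where 40 of 51 were kept. Elsewhere 5 of 16 were kept in RNF43, 1 of 3 in AXIN2, 1 of 3 in CTNNB1, 1 of 1 in SOX9 and 1 of 1 in LGR5. Of these 75, 6 overlapped TAF3 and 6 overlapped H3K4me3, against 27.2% and 29.4% of all RNAPII peaks. The shares over all peaks include peaks at gene starts, which the peaks away from the start leave out by definition. They are thus not shares of like peaks. Neighbouring RNAPII peaks in 1 gene are not independent.

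RNAPII covered TCF7L2 from end to end. Its 52 peaks covered 95.5% of the 217 kb span, whereas RNAPII peaks as a whole covered 2.95% of the effective genome size given to the peak caller. Such coverage was also found at shorter members, with 100% of MYC (6 kb), 100% of CCND1 (13 kb) and 97.6% of SOX9 (6 kb). The TCF7L2 start peak held 246 tags per kb (234 to 258), and the 51 peaks beyond it held 90.3 tags per kb (89.0 to 91.6) over 209 kb, a ratio of 2.73. Single peaks among the 51 ranged from 43.8 to 145 tags per kb, a spread that the interval on their pooled tags does not cover. The widest peak was chr10:114762724-114783329, with 20606 bp, 2067 tags and 11.3-fold enrichment. The 2 strongest beyond the start were chr10:114831983-114837672 at 38.8-fold (692 tags, 641 to 746) and chr10:114926592-114932592 at 34.6-fold (873 tags, 816 to 933), the latter at the 3′ end of TCF7L2. The first of these, 124 kb into the gene, coincided with a TAF3 peak of 7.11-fold and an H3K4me3 peak of 5.50-fold, both outside the filtered list. The strongest TAF3 and H3K4me3 peaks of TCF7L2 beyond its start were also weak and unfiltered, with TAF3 at 10.5-fold 5.78 kb into the gene (62 tags) and H3K4me3 at 5.66-fold 8.80 kb into it (22 tags).

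CTNNB1 showed the opposite layout. Its RNAPII start peak held 359 tags per kb (332 to 388), and peaks covered 6.09% of its 41 kb span. Only 2 weak RNAPII peaks lay inside the gene beyond the start, at 6.06- and 10.7-fold with 29 tags each, and both were outside the filtered list. Another (chr3:41283043-41288955, 15.1-fold, 446 tags, 406 to 489) lay just past the 3′ end. AXIN2 was similar, with RNAPII peaks on 9.65% of 33 kb and 1 filtered peak beyond the start, past the 3′ end (chr17:63523291-63524660, 9.49-fold, 112 tags). Some 4.35 to 5.27 kb into AXIN2 all 3 antibodies gave weak peaks outside the filtered list, at 5.65-fold for TAF3 (32 tags), 10.9-fold for H3K4me3 (40 tags), and 8.82- and 10.8-fold for RNAPII (36 and 20 tags).

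RNF43 lay between the extremes. Its 17 RNAPII peaks covered 35.01% of 65 kb, and 16 lay beyond the start with a median of 7.28-fold, 5 of them in the filtered list. The strongest set of peaks beyond the RNF43 start straddled the 3′ end of the gene. RNAPII reached 95.5-fold (chr17:56428441-56432596, 1091 tags), H3K4me3 120-fold (chr17:56428102-56430873, 1580 tags) and TAF3 38.8-fold (chr17:56428621-56430482, 302 tags, 269 to 338). Their summits lay 65.5 to 65.6 kb from the start, past the 3′ end of the 65 kb span, which is known to the kb. This H3K4me3 peak held 570 tags per kb, against 159 at the RNF43 start. SUPT4H1 is the next gene on that side in RefSeq, and these peaks cannot be assigned to 1 of the 2 genes from the files. A further TAF3 peak of 8.44-fold lay 22.8 kb into RNF43 under a filtered RNAPII peak of 17.3-fold. LGR5 had a single RNAPII peak, 30.3 kb into the gene (chr12:71863016-71863589, 29.7-fold, 74 tags, 58.1 to 92.9), with no TAF3 or H3K4me3 peak over it.

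**Figure D4:**
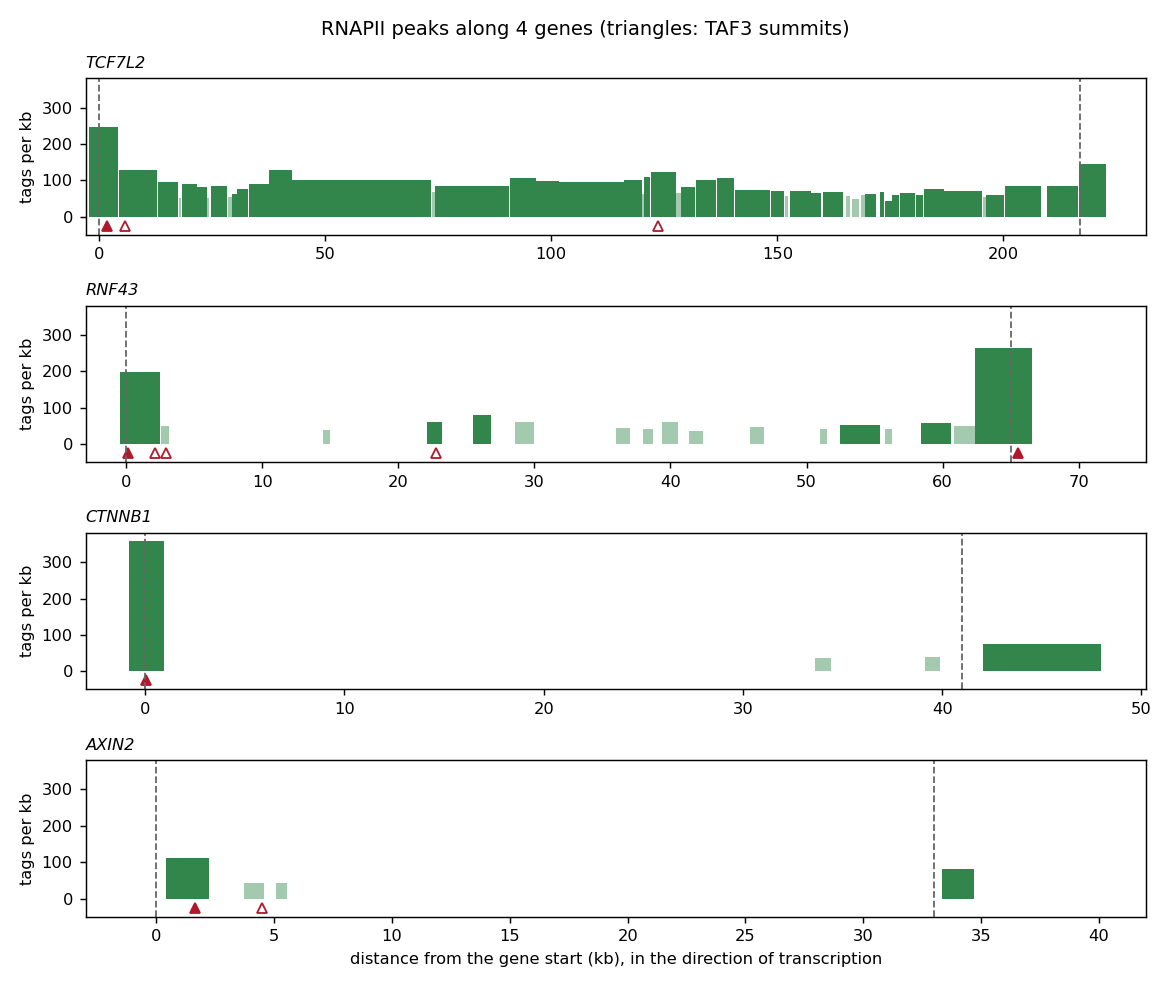
RNAPII tags per kb of each peak (bar height) along TCF7L2, RNF43, CTNNB1 and AXIN2, with the distance from the start in kb. Dashed lines are the ends of the span, pale bars are not in the filtered list, and triangles are TAF3 summits (open where not filtered). TCF7L2 is filled along 95.5% of its span, CTNNB1 is nearly empty between a start peak of 359 tags per kb and a peak past its 3′ end, and RNF43 has its densest bar at the 3′ end.

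Just outside the limit of 2 kb beyond the spans, 4 genes had an RNAPII peak. These lay 2.11 kb upstream of MYC (13.9-fold, 64 tags), 2.98 kb upstream of TCF7L2 (6.77-fold, 92 tags), 3.62 kb past RNF43 (5.14-fold, 87 tags) and 4.81 kb past CCND1 (7.59-fold, 66 tags). The peaks that lay wholly beyond a span but reached within 2 kb of it were the RNAPII peaks past AXIN2 (9.49-fold) and CTNNB1 (15.1-fold), the weak H3K4me3 peak upstream of MYC (8.79-fold) and the upstream TAF3 peak of CCND1 (46.5-fold). Of these, all but the AXIN2 peak extended past the limit as well.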

How the data were processed

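Per the submitters' processing notes, CASAVA 1.8.2 and MACS 1.4.2 were used with build hg19. No source used here gives aligner settings. Each antibody was called separately against the same input library, per the file headers, with a p cutoff of 1e-05 and at most 1 tag kept per position, which bounds the tags a dense place can reach. Tag counts in the deposited lists are raw sums per peak, so they cannot be compared between antibodies. Fold enrichment, as deposited, is the ratio of summit height to local background. The deposited score, a multiple of -log10 of the p-value, was not used for ranking. False discovery rates were deposited in percent.

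Members, strands and lists were chosen with earlier results of these data known. Starts are known to the kb only, so distances from a start carry that error. The rule for naming was to give every gene its start peak of highest fold enrichment per list. Away from the start, the peak of highest fold enrichment per gene and list was to be named, and other peaks named there were chosen after their values were seen. The strand was taken from general knowledge and equalled that of RefSeq for the 4 genes found there. A list of 35 further Wnt genes was not analysed here, since the annotation at hand was on GRCh38. Tables were read with pandas 2.3.3 and numpy 2.4.6 in Python 3.11.15, intervals came from scipy 1.17.1, and plots from matplotlib 3.10.9. On simulated data 10 of 10 checks of the overlap and coverage code passed.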

Additional observations from a re-analysis of the deposited data

How the results depend on the processing

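Each of 28 alternative counts of genes and peaks was compared with the reported count, and 27 stayed within 1.5 times of it. This bound is loose for the gene counts, which cannot exceed 10. A fall from 8 to 6 genes, or from 15 to 10 H3K4me3 peaks, counted as within it. The exception was the number of TAF3 peaks over the spans, which was 9 instead of 16 with the filtered lists. Genes with all 3 antibodies at the start numbered 7 with the filtered lists, 8 within 10 kb of the start, and 6 where the start itself had to lie in the peak or the fold enrichment had to exceed 20. ASCL2 and AXIN2 were the genes lost in both of the last settings. Choosing the start peak by tags left the median place of the start peaks of each antibody as it was. The place of a single start peak in its list depended on the measure, and 4 of 74 alternative places stayed within the Wilson 95% interval of the reported one. A place is a share of a complete list, so this interval is a narrow bound set by list length and measures no sampling error. Ranked by tags per bp, the H3K4me3 peak of MYC stood above 97.2% instead of 61.5% of its list, and that of CTNNB1 above 73.9% instead of 98.7%. Within the filtered list the AXIN2 TAF3 peak stood above 7.44% instead of 36.1%, and the LGR5 H3K4me3 peak above 8.43% instead of 27.1%. No paired analysis was possible because each antibody has 1 library, and no replicate could be left out. The TAF3 start peak of ASCL2 rests on 25 tags, which limits its precision.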
